A study of Homo sapiens with 3 samples.

Results

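The 9 genes described here are the kinase gene JAK1, the signal transducer genes STAT2 and STAT3, the interferon regulatory factor genes IRF1, IRF2, IRF3, IRF7 and IRF9, and the feedback inhibitor gene SOCS1. They were chosen by name from the 26485 genes of the count table, and all 9 are in it. RNA was counted in 3 libraries of HEC1B, an established human endometrial cancer cell line, all at 48 h. The siNC control is 1 library of cells labelled WT. The PRMT6 knockdown group is 2 libraries, 1 with siPRMT6-1 and 1 with siPRMT6-2, siRNAs directed at PRMT6, which encodes an enzyme that methylates arginines. The comparison asked which of the 9 genes were present in the control and which were higher with either siRNA.

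Interferon and cytokine receptors carry JAK kinases, which phosphorylate STAT proteins when a ligand binds. After type I or type III interferon, STAT2 and IRF9 act as subunits of the factor ISGF3, which binds interferon-stimulated response elements (ISRE) in the promoters of antiviral genes. STAT dimers, among them STAT3 dimers downstream of gp130 receptors, bind gamma-activated sites (GAS). IRF3 and IRF7 are activated by nucleic acid sensors and turn on interferon genes, IRF1 activates antigen presentation and antiviral genes, IRF2 is known as its antagonist on shared sites, and SOCS1 inhibits JAK kinases.

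The promoters of IRF1, IRF9 and SOCS1 are shown because, of those searched, they held a GAS or ISRE match. The sequences are from RefSeq (GRCh38.p14), 5′ to 3′ on the gene's strand, upstream of both the RefSeq start and the first exon of the deposited gene model. Capitals mark the match, GAS in IRF1 (chr5:132490774-132491023, minus strand) and IRF9 (chr14:24161015-24161212, plus strand), ISRE in SOCS1 (chr16:11256205-11256454, minus strand).
IRF1: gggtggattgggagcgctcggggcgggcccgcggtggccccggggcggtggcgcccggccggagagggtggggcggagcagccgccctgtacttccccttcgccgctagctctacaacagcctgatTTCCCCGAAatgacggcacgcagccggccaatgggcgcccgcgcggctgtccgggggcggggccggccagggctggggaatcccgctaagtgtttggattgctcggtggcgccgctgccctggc
IRF9: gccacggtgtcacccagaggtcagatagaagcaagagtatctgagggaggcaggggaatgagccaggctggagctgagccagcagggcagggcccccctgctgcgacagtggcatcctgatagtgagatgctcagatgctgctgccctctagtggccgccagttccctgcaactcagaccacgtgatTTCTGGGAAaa
SOCS1: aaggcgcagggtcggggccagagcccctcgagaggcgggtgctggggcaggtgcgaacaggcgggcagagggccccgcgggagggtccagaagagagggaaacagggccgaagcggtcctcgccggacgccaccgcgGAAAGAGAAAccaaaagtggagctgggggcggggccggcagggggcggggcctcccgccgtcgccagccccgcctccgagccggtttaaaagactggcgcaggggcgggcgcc
The matches began 124 bases before the RefSeq start in IRF1, 63 in IRF9 and 113 in SOCS1. The motif searched as GAS was TTCNNNGAA, which reads the same on both strands, and 7.66% of 35116 promoter windows of 300 bases held it. The motif searched as ISRE was GAAA, any 2 bases and GAAA again, on either strand, held by 3.57% of the windows. RefSeq windows were matched for 6 of the 9 genes, and IRF2, IRF3 and IRF7 were not searched. Of the 6, JAK1 (3 windows), STAT2 and STAT3 had no match to these letters within it. A match describes the sequence and was not tested as a binding site.

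The libraries held 410916 counts (siNC), 381628 (siPRMT6-1) and 362080 (siPRMT6-2), so that 3 counts, the floor that a count of 0 allows, equal 7.78, 8.09 and 9.09 CPM, the usual unit of depth-scaled counts, here with library sizes scaled by TMM. Counts are given in this order of libraries throughout. PRMT6 had 25, 4 and 7 counts, so that its ratio to siNC was 0.167 for siPRMT6-1 (0.0421 to 0.482, here and below a 95% exact binomial interval) and 0.327 for siPRMT6-2 (0.120 to 0.778). Of the epithelial markers, KRT8 had 1329, 681 and 770 counts and KRT18 had 129, 85 and 95, EPCAM had 4 to 5, and KRT19 and CDH1 were at 0 in all 3. The deposited table was counted with strand setting 1, and VIM-AS1 had 12493 counts in siNC where VIM had 312. Should the setting be inverted for this kit, every count below would belong to the opposite strand. Each siRNA has 1 library, so all intervals cover counting error only, a ratio compares 2 libraries and not 2 conditions, and fewer cells of a kind cannot be told apart from less RNA per cell.

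In siNC, by the deposited counts at strand setting 1, JAK1, IRF3 and IRF7 were present and the other 6 were low. Both words describe these counts and hold for the genes' own RNA only if that setting is right. Present means at least 10 counts, which 21.7% of all 26485 genes reached. JAK1 had 19 counts (95% exact Poisson interval 11.4 to 29.7), IRF3 had 18 (10.7 to 28.4) and IRF7 had 13 (6.92 to 22.2). The 6 low genes had 1 to 6 counts each and none was at 0. Low here is a statement on depth as well, since the intervals of IRF9 (0.0253 to 5.57 counts) and IRF1 (0.242 to 7.22) span a wide range.

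**Figure D1:**
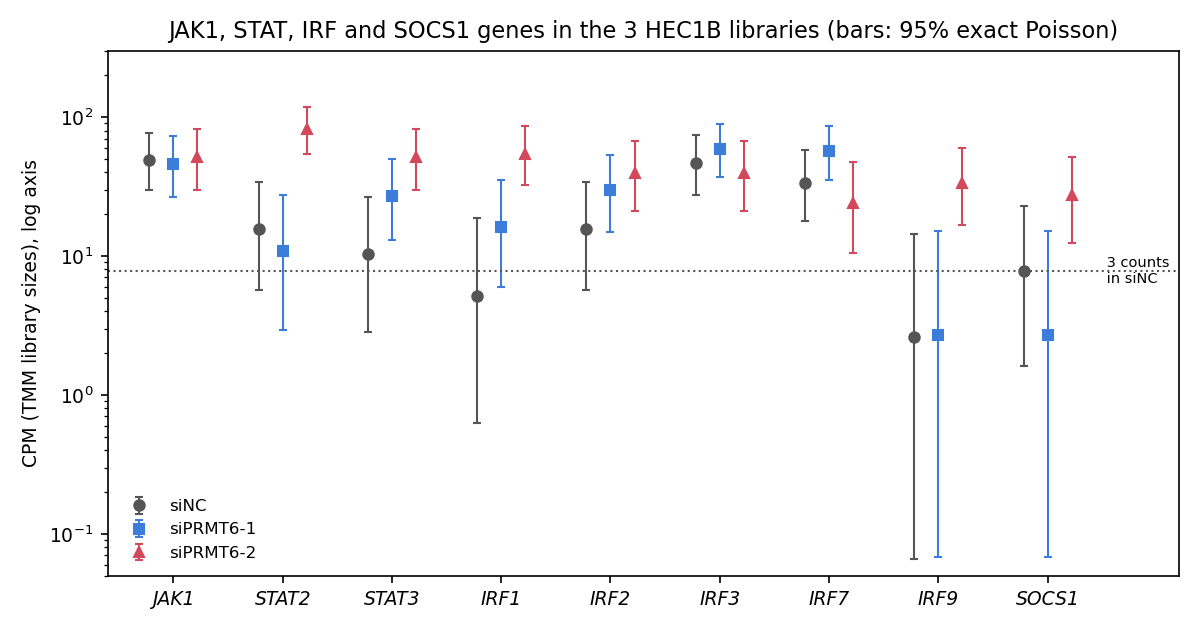
CPM of the 9 genes (log axis) in siNC (circles), siPRMT6-1 (squares) and siPRMT6-2 (triangles), 1 library each, with 95% exact Poisson intervals; the dotted line is 3 counts in siNC. JAK1 stays between 45.9 and 51.5 CPM, while STAT2 goes from 15.6 and 10.8 CPM in siNC and siPRMT6-1 to 81.8 in siPRMT6-2.

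Per length, the order in siNC was IRF3 (23.2 CPM per kilobase of exon), IRF7 (15.8), JAK1 (9.75), IRF2 (6.80), SOCS1 (6.39), STAT2 (3.42), STAT3 (2.08), IRF9 (1.54) and IRF1 (1.46). IRF7 was divided by 2138 exonic bases, the length of a single copy, and not by the 4276 of its deposited model. Its place in the order depends on this choice. No gene in this order differed from the next beyond counting error. The ends did, since IRF3 was 15.9 times IRF1 (exact binomial interval 3.81 to 141). In siPRMT6-2 the levels lay closer together, from 22.4 CPM per kilobase for SOCS1 to 10.2 for JAK1, a ratio of 2.20 (0.864 to 5.22). In that library IRF9 (19.8), STAT2 (18.0) and IRF1 (15.3) stood beside IRF3 (19.6).

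In the siPRMT6-2 library 6 of the 9 genes were at least 2-fold above siNC, namely STAT2, STAT3, IRF1, IRF2, IRF9 and SOCS1. Among the 6803 genes that passed the filter on low counts, 10.8% reached this fold. Of the 9 genes 7 passed this filter, 4 of them with the fold. The 6 are the same genes that were low in siNC, and a low denominator raises a ratio. Among all 8036 genes with 1 to 9 counts in siNC, 21.2% had a fold of at least 2, beside 6 of 6 here. This share was 25.6% among the 2929 of them with at least 13 counts over the libraries, the lowest total of the 9 genes. It was 42.0% among the 1137 that passed the filter, beside 4 of 4. Both selections use the siPRMT6-2 counts. STAT2 and IRF1 passed the filter only through them, so for these genes a rise there was built in. Among the 5754 genes with at least 10 counts the share was 3.88%, beside 0 of 3. The siPRMT6-2 interval lay above 1 for STAT2, STAT3, IRF1 and IRF9 and reached below 1 for IRF2 and SOCS1. A fold of at least 2 with an interval above 1 was found for 7.07% of the 6803 genes, which do not include IRF9.

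In the siPRMT6-1 library STAT3 and IRF1 were at least 2-fold above siNC, against 7.35% of the 6803 genes and 20.2% of the 8036 genes low in siNC. All 9 intervals of siPRMT6-1 included 1, while 3.37% of the 6803 genes had this fold with an interval above 1. SOCS1 was at 0.347 of siNC (0.00661 to 4.32), and 8.49% of the 8036 genes were at 0.5 or lower. STAT3 and IRF1 were therefore the 2 genes with this fold with both siRNAs, as were 3.01% of the 6803 genes and 9.23% of the 8036. Both ratios use the same siNC library, in which STAT3 and IRF1 had 4 and 2 counts.

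**Figure D2:**
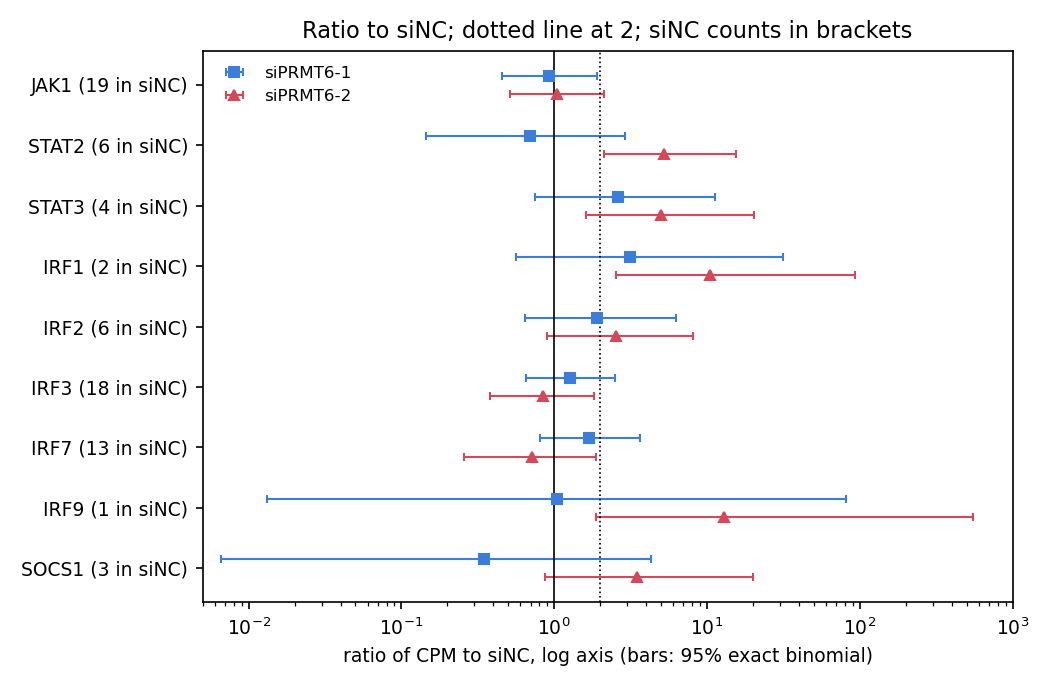
Ratio of CPM to siNC for each gene (log axis) with siPRMT6-1 (squares) and siPRMT6-2 (triangles), with 95% exact binomial intervals and the siNC count in brackets. The siPRMT6-2 intervals of STAT2, STAT3, IRF1 and IRF9 lie above 1, and all siPRMT6-1 intervals cross 1.

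The ISGF3 subunits STAT2 and IRF9 were higher in the siPRMT6-2 library than in either of the others. STAT2 (hg38 chromosome 12, 56341598 to 56360253, minus strand) had 6, 4 and 27 counts. The ratio to siNC was 0.694 with siPRMT6-1 (0.144 to 2.93) and 5.26 with siPRMT6-2 (2.13 to 15.6). IRF9, the DNA-binding subunit (chromosome 14, 24161213 to 24166566, plus strand), had 1, 1 and 11 counts. Its ratio with siPRMT6-2 was 12.9, with an interval of 1.87 to 553 that the single siNC count leaves very wide. Between the knockdown libraries, STAT2 was 7.58 times higher with siPRMT6-2 than with siPRMT6-1 (2.64 to 29.8) and IRF9 12.4 times (1.80 to 532).

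STAT3 (chromosome 17, 42313325 to 42388495, minus strand) had 4, 10 and 17 counts, lowest in siNC and highest in siPRMT6-2. Relative to siNC it stood at 2.60 for siPRMT6-1 (0.750 to 11.4) and at 4.97 for siPRMT6-2 (1.62 to 20.3). The knockdown libraries were not distinguishable for STAT3 at this depth, with a ratio of 1.91 (0.826 to 4.67). IRF1 (chromosome 5, 132481609 to 132490773, minus strand) had 2, 6 and 18 counts, again lowest in siNC and highest in siPRMT6-2. Relative to siNC it stood at 3.12 for siPRMT6-1 (0.558 to 31.6) and 10.5 for siPRMT6-2 (2.52 to 93.5), and it was 3.37 times higher with siPRMT6-2 than with siPRMT6-1 (1.28 to 10.4).

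IRF2 (chromosome 4, 184387722 to 184474572, minus strand) had 6, 11 and 13 counts. Its ratios of 1.91 with siPRMT6-1 (0.647 to 6.28) and 2.53 with siPRMT6-2 (0.898 to 8.13) were not separated from siNC, nor from each other (1.33, 0.549 to 3.27). SOCS1 (chromosome 16, 11254417 to 11256182, minus strand), which stops JAK signalling, had 3, 1 and 9 counts. Its ratio for siPRMT6-2 was 3.51 to siNC (0.875 to 20.1) and 10.1 to the siPRMT6-1 library (1.40 to 443), so the separation from siPRMT6-1 rests on a single count there.

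Of the 3 genes present in siNC, none was 2-fold higher with either siRNA. JAK1 (chromosome 1, 64833223 to 64966504, minus strand) had 19, 17 and 17 counts, and its ratios were 0.931 (0.455 to 1.89) with siPRMT6-1 and 1.05 (0.511 to 2.13) with siPRMT6-2. IRF3 (chromosome 19, 49659569 to 49665875, minus strand) had 18, 22 and 13 counts, with ratios of 1.27 (0.651 to 2.52) and 0.844 (0.380 to 1.82). IRF7 (chromosome 11, 612555 to 615999, minus strand) had 13, 21 and 8 counts, highest in siPRMT6-1 and lowest in siPRMT6-2. IRF7 is itself known as an interferon-stimulated gene, and its ratio with siPRMT6-2 was 0.719 (0.258 to 1.87). The upper bound lies below the lower bounds of STAT2 and IRF1, but not below those of STAT3, IRF2, IRF9 and SOCS1. The ratio of siPRMT6-2 to siPRMT6-1 for IRF7 was 0.428 (0.164 to 1.01). The gene model of IRF7 in the deposited table covers chromosome 11 and an alternate copy of the locus, 2138 exonic bases in each, and neither the labels nor the header say how reads that fit both copies were treated.

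Comparing the knockdown libraries with each other leaves siNC out. STAT2, IRF1, IRF9 and SOCS1 were at least 2-fold higher with siPRMT6-2 than with siPRMT6-1, 4 of 9 genes. Among those that passed the filter it was 2 of 7, against 11.7% of the 6803 genes. These 2, STAT2 and IRF1, passed only through their counts in siPRMT6-2. Among those low in siNC it was 4 of 6, against 16.3% of the 8036 genes. All 4 intervals lay above 1. Of all 6803 genes, which do not include IRF9 and SOCS1, 7.54% met both rules, that fold and an interval above 1. IRF7 was the gene at or below 0.5, as were 9.29% of the 6803 genes. The 9 genes summed to 72, 93 and 133 counts. For the sum, the ratio to siNC was 1.34 (0.978 to 1.85) for siPRMT6-1 and 2.16 (1.61 to 2.92) for siPRMT6-2. The present genes JAK1, IRF3 and IRF7 summed to 50, 60 and 38 counts, and the 6 low genes to 22, 33 and 95.

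**Figure D3:**
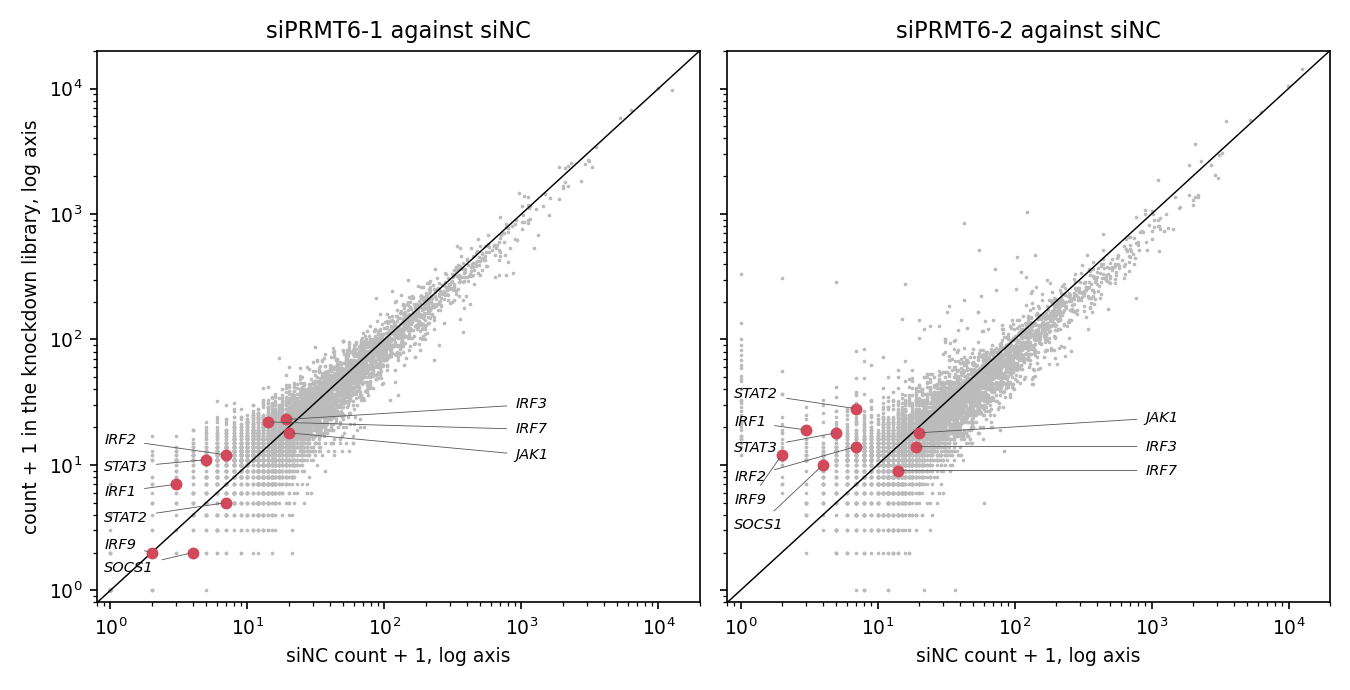
Counts plus 1 of the 6803 genes that passed the filter (grey) and of the 9 genes (red) in siPRMT6-1 (left) and siPRMT6-2 (right) against siNC, both axes log, with the line of equal counts. With siPRMT6-2 the 6 genes low in siNC lie above the line, at 9 to 27 counts against 1 to 6, and JAK1, IRF3 and IRF7 lie on or below it.

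In the edgeR quasi-likelihood test of both knockdown libraries against siNC, none of the 9 genes passed. The test called 0 of 6803 genes (0.0%), and 186 had an unadjusted p under 0.05. DESeq2 also called 0 genes, with 13 at an unadjusted p under 0.05. Of the 9 genes 7 were tested, and STAT2 and IRF1 entered only through their counts in siPRMT6-2. The log2 fold change was 2.67 for IRF1 (SE 1.12, unadjusted p = 0.0323) and 1.87 for STAT3 (SE 0.870, unadjusted p = 0.0495), each with an edgeR adjusted p of 1.00. An unadjusted p under 0.05 with a higher level was reached by 2.03% of the genes. For STAT2 the value was 1.53 (SE 1.00), which became −0.53 without the siPRMT6-2 library, for IRF2 1.13 (SE 0.790), for IRF7 0.28 (SE 0.694), for IRF3 0.09 (SE 0.596) and for JAK1 −0.02 (SE 0.578). The test has 1 residual degree of freedom, the gap between the siRNAs, and assumes that siNC varies as they do. IRF9 and SOCS1, with 13 counts each over the libraries, fell under the filter, and without it their log2 fold changes were 2.57 (SE 0.931) and 0.84 (SE 0.763), with an edgeR adjusted p of 0.837 for both.

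JAK1 and IRF3 have opposite-strand partners. IRF3 shares 392 bases, 19.5% of its exons, with BCL2L12, which had 111, 98 and 84 counts. JAK1 shares 9 bases with RAVER2, which had 2, 12 and 4 counts. The other 7 genes share none in the deposited models. In GENCODE release 29, C5orf56 overlaps IRF1 on the opposite strand and had 1, 0 and 4 counts, and RMI2 overlaps SOCS1 with 2, 2 and 0.

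Of 4 other STAT genes, STAT6, which serves interleukin-4 signalling, had 19, 20 and 24 counts and STAT5B had 3, 2 and 3. None of the 4 was at least 2-fold above siNC in either knockdown library. Of 3 other IRF genes, IRF5 had 1, 11 and 10 counts, a ratio of 11.4 for siPRMT6-1 (1.66 to 493) and 11.7 for siPRMT6-2 (1.66 to 507). IRF8 had 4, 2 and 3 counts, and IRF4 was at 0 in all 3. No gene of any list in this and the next paragraphs passed the edgeR test over all genes.

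The 9 genes of interferon receptors and kinases summed to 53, 66 and 63 counts, a ratio to siNC of 1.30 for siPRMT6-1 (0.889 to 1.90) and 1.39 for siPRMT6-2 (0.949 to 2.04). IFNAR1, a chain of the type I interferon receptor, had 6, 9 and 12 counts, IFNGR2, a chain of the type II receptor, 23, 31 and 18, and the kinase gene TYK2 12, 15 and 17. The 5 gp130-type receptor genes summed to 23, 27 and 42 counts, a ratio of 2.13 for siPRMT6-2 (1.25 to 3.72). Among them, IL6ST, which encodes gp130, had 10, 11 and 12 counts, IL6R 7, 4 and 14, and OSMR 5, 7 and 11. Of the 13 ligands 7 were at 0 in all 3 libraries, IFNB1 among them. The type III interferon gene IFNL1 had 1, 0 and 7 counts, and the gp130 ligand gene LIF 26, 15 and 31.

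Of 16 negative regulators, SOCS3, the inhibitor of gp130 signalling, had 15, 20 and 30 counts, a ratio of 2.34 for siPRMT6-2 (1.22 to 4.68). USP18, which removes ISG15 and blocks the type I receptor, had 0, 1 and 58 counts. With siPRMT6-2 it was 22.6 times the floor of 3 counts in siNC, and the lower bound of its ratio to siNC was 17.8. The phosphatase genes PTPN1 and PTPN11 had 46, 29 and 32 and 27, 25 and 19 counts. Of 9 kinases and adaptors upstream of IRF3 and IRF7, the kinase gene IKBKE had 3, 3 and 11 counts, a ratio of 4.29 for siPRMT6-2 (1.13 to 23.9), the adaptor gene MAVS 23, 18 and 26, and TRAF3 26, 15 and 24.

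**Figure D4:**
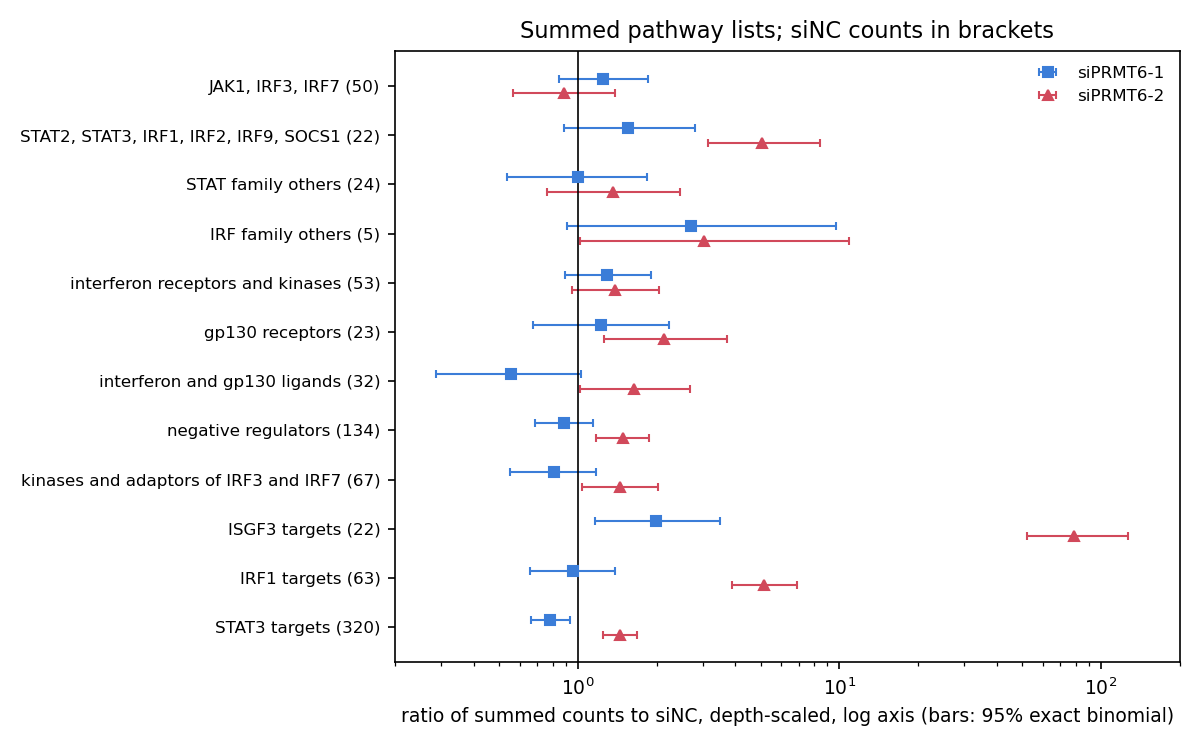
Ratio of summed counts to siNC (log axis) for the 9 genes, divided into the 3 present and the 6 low in siNC, and for the pathway lists, with siPRMT6-1 (squares) and siPRMT6-2 (triangles), 95% exact binomial intervals and the siNC sum in brackets. ISGF3 targets stand at 79.0 times siNC with siPRMT6-2 and IRF1 targets at 5.14 times.

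The 21 ISGF3 targets summed to 22, 42 and 1486 counts. Their ratio to siNC was 1.99 for siPRMT6-1 (1.16 to 3.49) and 79.0 for siPRMT6-2 (52.0 to 126). Of the 21, 18 were at least 2-fold above siNC in the siPRMT6-2 library, while MX1 and UBE2L6 were at 0 in all 3 libraries. Among the 16 IRF1 targets 9 had this fold, and their sum was 63, 58 and 277 counts, 5.14 times siNC (3.90 to 6.87). TAP1, the peptide transporter, had 7, 5 and 83 counts and shares exon bases with an opposite-strand gene, and NLRC5, the class I transactivator, had 0, 0 and 20. Of the 11 STAT3 targets 2 had the fold, BCL3 with 7, 4 and 18 counts and JUNB with 16, 21 and 47, and the sum was 320, 241 and 398 counts. These counts of 18 of 21, 9 of 16 and 2 of 11 include genes that did not pass the filter. Among those that passed they were 17 of 17, 6 of 7 and 2 of 10, beside 10.8% of the 6803 genes. Passing can itself rest on the siPRMT6-2 counts. The share was 21.2% of the genes with 1 to 9 counts in siNC and 3.88% of those with at least 10. Only 7 of the 21 ISGF3 targets and 7 of the 16 IRF1 targets had a count in siNC, and a fold from 0 was set by the floor. The ratio of the sum of STAT3 targets to siNC was 0.784 for siPRMT6-1 (0.660 to 0.929), below 1, and 1.45 for siPRMT6-2 (1.25 to 1.69), above 1. STAT3 itself was at 2.60, with an interval that includes 1, and at 4.97.

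The lists of targets were written with results on interferon-stimulated genes in these libraries known. Leukocyte markers summed to 17, 19 and 57 counts, of which CD68 had 17, 19 and 56, while PTPRC, CD3E, CD14 and HLA-DRA were at 0 in all 3 libraries. LYZ, the last of these 6, had 0, 0 and 1. Of the 6 fibroblast markers COL1A1 had 515, 354 and 370 counts, PDGFRB had 16, 6 and 2, a ratio of 0.146 for siPRMT6-2 (0.0163 to 0.622), and COL1A2, COL3A1, DCN and LUM had none. Of the 5 endothelial markers PECAM1 had 19, 16 and 5 counts, CLDN5 had 7, 9 and 9, VWF had 0, 2 and 1, and CDH5 and KDR had none.

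Of 985 genes with at least 100 counts and no opposite-strand partner, 5 lay nearest to the summed 9 genes by the distance between their pairs of log2 CPM differences from siNC. They were PPP1R15A (28, 36 and 53 counts, distance 0.02), RHOC (30, 37 and 54, distance 0.11), KDM2A (38, 51 and 66, distance 0.12), MASTL (36, 52 and 66, distance 0.15) and PVRL2 (27, 33 and 46, distance 0.18). With 3 libraries this likeness rests on 2 differences that share siNC, and 12 genes lay within 0.25.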

How the data were processed

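The 3 HEC1B libraries were made with a low-input kit that keeps strand, per the labels' protocols. The authors deposited raw counts for each gene, not normalized, beside its exonic length. The submitters' processing notes name STAR 2.7.8a and featureCounts 2.0.10 with hg38, and per the file headers featureCounts 2.0.1 counted exons by gene name with strand setting 1, adding a read to every gene it overlaps. Columns were matched to samples through the descriptions, whose siRNA names differ from those in the titles, used here. Separate cultures are not stated, so a p-value reflects the spread of these libraries, which may be technical.

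Both knockdown libraries were tested against siNC in edgeR 4.0.16 by its quasi-likelihood test (R 4.3.3, TMM, filterByExpr with a minimum count of 10 and a minimum total of 15, two-sided, Benjamini-Hochberg adjusted p under 0.05). Alternatives were DESeq2 1.42.0, other edgeR fits and scalings, no filter, leaving out genes with opposite-strand partners or 1 knockdown library, and other count and fold thresholds. The edgeR fit and the ratio intervals were tested on simulated data. In the edgeR simulation both knockdown libraries had the same fold, so it does not cover genes on which the siRNAs differ. Single libraries were compared by the ratio of TMM-scaled counts with a 95% exact binomial interval (Clopper-Pearson), and counts carry exact Poisson intervals. A 0 was set to the floor of 3 counts, per library, when genes past a fold were counted. Log2 CPM differences, used for likeness between genes, have a prior count of 2. All 9 genes, genes sharing exon bases with them, and of each list the 3 with most counts and those whose interval excludes 1 could be named, and long lists are given by their sums. VIM, VIM-AS1, IRF4, IFNB1, MX1, UBE2L6 and the neighbours from GENCODE were named after their values were seen. Results of 2 listed genes are not reported here. The 9 genes and the lists were chosen with earlier results of these data known.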

Additional observations from a re-analysis of the deposited data

How the results depend on the processing

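No paired analysis was possible because each siRNA has 1 library and the control has 1. Genes called by the test of both siRNAs numbered 0 in edgeR's quasi-likelihood fit and 32 with its older version and 31 with its likelihood ratio test, none of them among the 9 genes. The cause was not tested. With another baseline, 5 of the 9 genes had at least 5 counts in siNC and 9 at least 1, beside 3 with at least 10. For siPRMT6-1, 2 of the 9 genes were at least 2-fold above siNC, but 0 when the interval also had to lie above 1, and 4 at a fold of at least 1.5. Of 97 values of single genes under the alternatives 93 kept their direction, and 4 changed sign when 1 knockdown library was left out. Leaving out 1 knockdown library at a time leaves no test. Log2 fold changes without siPRMT6-2, and then without siPRMT6-1, were −0.10 and 0.065 for JAK1 and −0.53 and 2.40 for STAT2. In the same order they were 0.35 and −0.24 for IRF3 and 0.75 and −0.48 for IRF7. The lowest adjusted p of any of the 9 genes in any edgeR or DESeq2 fit was 0.837. Depth limits all of this, since no gene of the 9 had more than 27 counts in a library.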

Other observations

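Neighbours of 2 of the genes had counts that are given here as values. CDHR5, the next gene upstream of IRF7 on the same strand and 565 bases away in GENCODE release 29, had 15, 22 and 9 counts (siNC first, then siPRMT6-1, siPRMT6-2), where IRF7 had 13, 21 and 8. PHRF1, 330 bases away on the opposite strand, had 15, 27 and 16. RNF31, a ubiquitin ligase gene 391 bases upstream of IRF9 on the same strand, had 11, 9 and 12 counts, where IRF9 had 1, 1 and 11.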
